A study of Mus musculus with 46 samples.

Results

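Of the 25494 genes in the liver RNA-seq table, 9 encode the transcription factors that set hepatocyte identity considered here: Hnf4a, Hnf4g, Foxa1, Foxa2, Foxa3, Onecut1, Onecut2, Nr5a2 and Prox1. They were chosen by name, and for each the RNA, the peaks of acetylated histone H3 lysine 27 (H3K27ac), Hnf4α and C/EBPα in the gene and 20 kb on either side, and the promoter capture Hi-C (PCHi-C) interactions were compared between diets. The livers came from male C57BL/6 mice, 5 weeks old on arrival, that were kept for 20 weeks on a diet with 60% of its energy as lipid (LD, labelled high fat) or on one with 10% as fat and 70% as carbohydrate (CD, labelled low fat). Protein made up 20% of the energy on both diets, and the labels name no genotype or agent beside strain and diet. RNA-seq had 5 mice a diet, H3K27ac ChIP-seq 3, Hnf4α and C/EBPα ChIP-seq 2 each, and Hi-C and PCHi-C 2 that were pooled before calling. The deposited counts held 31707963 to 39012699 reads on genes per RNA library. The hepatocyte markers were abundant in every library, with a summed level of 93334 to 115200 counts scaled to library size (CPM) on LD and 98148 to 115590 CPM on CD. Alb made up most of that sum, and the single markers are given with those of other cells.

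HNF4A is an orphan nuclear receptor that binds as a homodimer and activates much of the metabolic and secretory programme of the hepatocyte. HNF4G is its close paralogue, better known from the gut. FOXA1, FOXA2 and FOXA3 are forkhead factors that can bind nucleosomal DNA and open liver enhancers, and the first pair is needed for the liver to form. ONECUT1 (HNF6) and ONECUT2 are cut-homeodomain factors with roles in hepatocytes and in the bile duct epithelium. NR5A2 (LRH-1) is a monomeric nuclear receptor that drives bile acid synthesis genes, and PROX1 is a homeodomain protein of hepatocytes and lymphatic endothelium that represses the activity of NR5A2 and HNF4A. In adult liver these factors bind one another's genes, and so the peaks of Hnf4α at the members are described here as auto-binding (at Hnf4a) and cross-binding (at the others).

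The following stretches of DNA carry the binding described below, and each is shown as the 200 bases around the centre of its Hnf4α peaks, read from the plus strand of mm9. They are the highest Hnf4α locus at any member (Prox1, intergenic, beyond the 3' end of the gene), the Hnf4α and C/EBPα loci just upstream of the start sites of Nr5a2 and Foxa2, and the highest Hnf4α loci of Foxa3 and Hnf4a, both intronic. Capitals mark the letters CAAAG, the core of the HNF4 half-site, and TTGCNNAA, a C/EBP-type sequence, on either strand.
Prox1, chr1:191930062-191930261: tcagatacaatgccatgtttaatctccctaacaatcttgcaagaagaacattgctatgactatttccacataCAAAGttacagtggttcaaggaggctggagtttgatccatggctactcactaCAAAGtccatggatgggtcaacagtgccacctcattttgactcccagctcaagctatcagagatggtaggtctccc
Nr5a2, chr1:138857263-138857462: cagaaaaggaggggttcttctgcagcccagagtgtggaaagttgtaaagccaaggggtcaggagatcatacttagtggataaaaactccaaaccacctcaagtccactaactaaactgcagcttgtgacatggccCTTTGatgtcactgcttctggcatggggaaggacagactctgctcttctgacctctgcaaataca
Foxa2, chr2:147872760-147872959: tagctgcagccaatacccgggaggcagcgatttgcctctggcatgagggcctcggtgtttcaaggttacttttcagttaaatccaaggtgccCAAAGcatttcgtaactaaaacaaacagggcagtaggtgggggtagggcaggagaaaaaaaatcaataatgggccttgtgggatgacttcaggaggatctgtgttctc
Foxa3, chr7:19601463-19601662: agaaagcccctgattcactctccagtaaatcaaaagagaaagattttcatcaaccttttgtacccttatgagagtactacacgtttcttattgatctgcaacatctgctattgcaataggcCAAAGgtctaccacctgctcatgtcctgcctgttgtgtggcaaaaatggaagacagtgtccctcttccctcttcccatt
Hnf4a, chr2:163366436-163366635: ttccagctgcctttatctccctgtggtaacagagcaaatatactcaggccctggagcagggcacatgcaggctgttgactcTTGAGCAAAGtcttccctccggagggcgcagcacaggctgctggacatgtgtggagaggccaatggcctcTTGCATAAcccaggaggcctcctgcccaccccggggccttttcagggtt
The Prox1 stretch holds CAAAG at 2 places, the second within CAAAGTCCA, a full HNF4 element that 5.13% of the 45827 Hnf4α loci searched over the genome and 1 of the 68 loci at the members contain. The Hnf4a stretch holds TTGCNNAA at 2 places, and the first overlaps its CAAAG. The core alone is common, present in 65.5% of the Hnf4α loci searched and in 44 of the 68 at the members. TTGCNNAA was found in 40.9% of the C/EBPα loci searched and in 21 of the 57 at the members. These matches describe the sequence and were not tested for binding.

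Among the members, Hnf4a was by far the most abundant transcript in the deposited length-corrected values (TPM). Its median over the 10 livers was 177 TPM, and the lowest liver, at 148 TPM, lay above every value of any other member. Foxa3 followed with a median of 37.4 TPM (28.4 to 53.5), Nr5a2 with 28.2 (22.3 to 31.7), Prox1 with 17.8 (11.8 to 31.1), Foxa2 with 15.8 (12.7 to 22.0) and Onecut2 with 9.54 (5.42 to 14.4). Onecut1 had a median of 4.80 TPM (2.02 to 41.8) and Foxa1 one of 3.21 TPM (2.22 to 5.15). Between Foxa3 and Foxa1 each gene's range overlapped that of the next in the order, so that only Hnf4a at the top and Hnf4g at the bottom stood apart from their neighbours. Hnf4g was nearly silent, with 0.0122 to 0.10 TPM and 23 counts in all 5 LD libraries together against 14 on CD, and it was not tested.

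**Figure D1:**
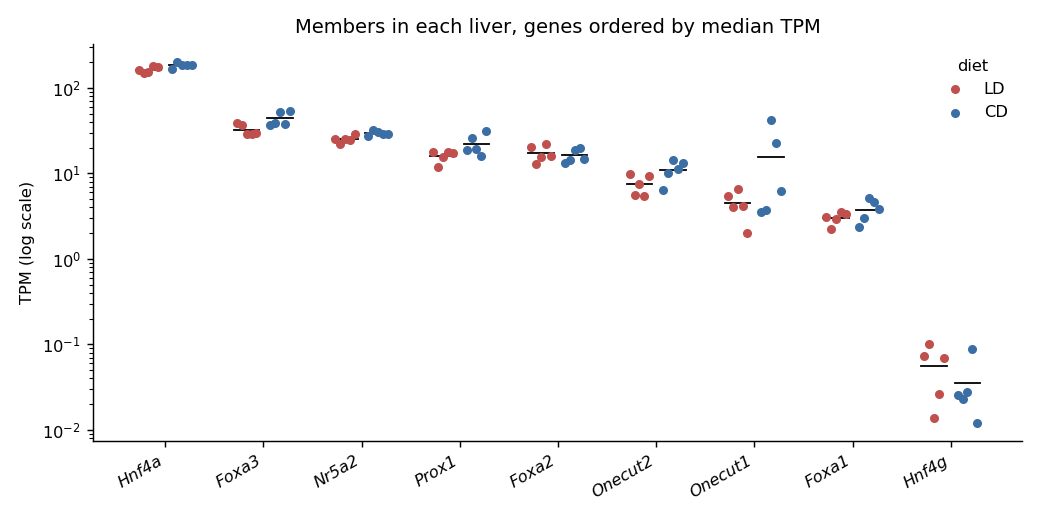
TPM of each member (log axis, genes in order of their median) in the 5 LD and 5 CD livers, where points are livers and bars are diet means. Hnf4a, at 148 to 200.3 TPM, and Hnf4g, at 0.0122 to 0.10 TPM, do not overlap the other members.

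The first comparison asked whether the RNA of the members differed between the diets. Of the 8 members tested, 7 had a lower level on LD, and 3 were called: Foxa3, Nr5a2 and Prox1, all lower on LD. A gene was called at an adjusted p-value (edgeR quasi-likelihood test, Benjamini-Hochberg over 13494 genes) under 0.05 with a fold change above 1.2. By the same rule 24.9% of all genes were called, 11.1% as higher on CD, so that 3 of 8 lies above the background share with few genes to judge from. The median log2 fold change (LD over CD) was -0.45 over the 8 members and 0.00 over all genes. Whether a change came from fewer cells of a type or from less RNA per cell cannot be told apart in whole liver.

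Hnf4a, the central receptor, had 394, 372, 377, 459 and 397 CPM in LD replicates 1 to 5, and 453, 507, 475.5, 475 and 480.3 CPM in CD replicates 1 to 5. In CPM LD replicate 4 was the sole liver to cross, lying just above the lowest CD liver. In TPM LD replicates 4 and 5 (178 and 175) both lay above CD replicate 1 (165). The fitted log2 change was -0.26 (SE 0.07, edgeR adjusted p 0.0176), but the fold lay just under the limit of 1.2, a log2 of 0.263, and Hnf4a was not called. Its level passed the adjusted p but the diets overlapped, and limma on log2 TPM gave adjusted p-values of 0.0728 and 0.0715 with 1 or 0.1 added. DESeq2 gave an adjusted p of 0.00144 with the fold again just under the limit, and without LD replicate 4 edgeR called the gene (-0.31, adjusted p 0.00473).

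Of the FOXA genes, Foxa3 moved. It had 41.5, 40.2, 30.9, 32.9 and 29.6 CPM on LD and 44.4, 43.5, 60.1, 58.5 and 43.0 CPM on CD. In CPM the diets did not overlap (18.5% of all tested genes were separated in this way). In TPM LD replicate 1 (38.6) lay above CD replicates 1 and 5 (36.9 and 37.8). The fitted log2 change was -0.51 (SE 0.13, edgeR adjusted p 0.0102). Foxa1 lay between 3.83 and 6.19 CPM in the LD livers and between 4.40 and 8.96 CPM in the CD livers, and its log2 fold change was -0.40 (SE 0.19, edgeR adjusted p 0.138). Foxa2 lay between 16.3 and 28.8 CPM in the LD livers and between 18.2 and 25.9 CPM in the CD livers, and its log2 fold change of 0.03 (SE 0.16, edgeR adjusted p 0.916) was well within the spread between mice. Both overlapped between the diets.

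Of the tested members, Onecut1 varied most among mice of one diet. It had 5.22, 4.03, 6.33, 4.22 and 1.79 CPM on LD and 3.79, 3.73, 6.17, 41.5 and 22.7 CPM on CD. CD replicates 4 and 5 stood far above the other 8 livers, which overlapped. The log2 fold change of -1.85 (SE 0.77, edgeR adjusted p 0.111) was not called, and without those 2 livers, a choice made after their values were seen, it was -0.09 (adjusted p 0.889). Onecut2 had 69.1, 39.9, 53.4, 40.2 and 60.7 CPM on LD and 49.8, 73.9, 96.4, 105 and 82.9 CPM on CD. All but the lowest CD liver lay above the highest LD liver, and the fitted log2 change was -0.63 (SE 0.22, edgeR adjusted p 0.0521), just past the limit.

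Nr5a2, the bile acid regulator, had the least spread of the called genes. Its levels were 51.4, 46.4, 52.3, 52.1 and 54.0 CPM on LD and 62.8, 66.5, 61.5, 64.0 and 61.9 CPM on CD, separated in CPM. In TPM the diets overlapped, with LD replicate 5 (28.784) above CD replicates 1 and 5 (27.601 and 28.779). The fitted log2 change was -0.31 (SE 0.06, edgeR adjusted p 0.0019). Prox1, its corepressor, had 38.7, 26.4, 34.0, 40.9 and 34.4 CPM on LD and 45.9, 58.9, 70.8, 43.9 and 36.5 CPM on CD. The diets overlapped by CD replicate 5 alone, and the fitted log2 change was -0.56 (SE 0.17, edgeR adjusted p 0.0347). The Prox1 call was lost in 10 of 19 alternative analyses, with adjusted p-values from 0.00647 to 0.149, while Nr5a2 was called in 16 of 19 and Foxa3 in 18 of 19.

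**Figure D2:**
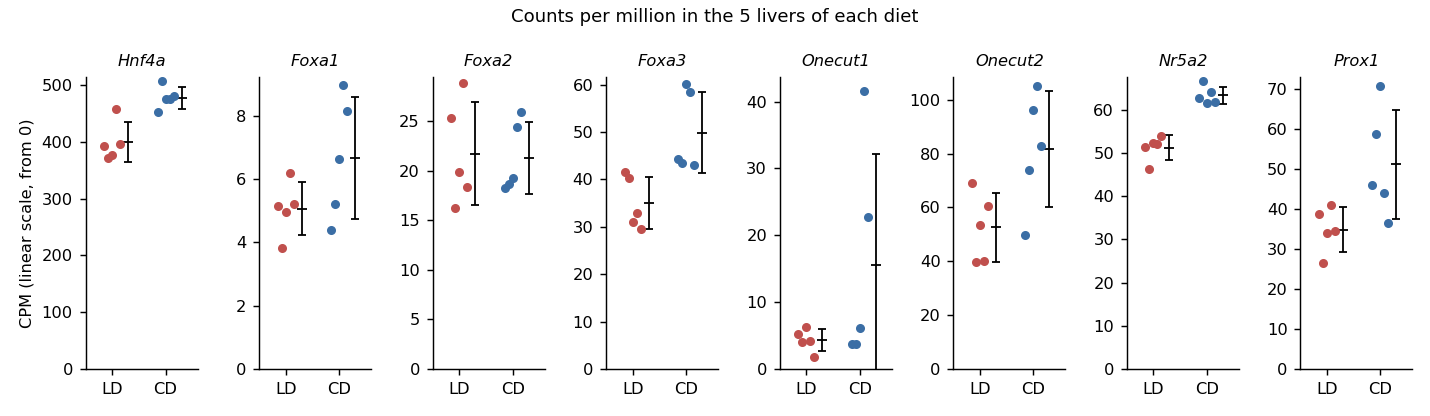
CPM of the 8 tested members on linear axes from 0, with 1 point a liver and the mean ± SD of each diet beside the points (the lower bar of Onecut1 on CD is cut at 0). Foxa3 and Nr5a2 are separated between the diets in CPM, though not in TPM, and in Onecut1 CD replicates 4 and 5 stand at 41.5 and 22.7 CPM.

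Some markers of other liver cells were called in the same libraries, as were 24.9% of all genes (13.8% higher and 11.1% lower on LD). The 6 cholangiocyte genes summed to 46.2 to 122 CPM on LD and 19.0 to 32.7 CPM on CD, of which Spp1 made up most (66.5 and 16.8 CPM on average), and it was the sole cholangiocyte marker of 6 to be called. Krt19 and Krt7, which define the bile duct, averaged 1.63 and 1.05 CPM in the LD livers, against 1.46 and 1.6 CPM in the CD livers. Epcam averaged 1.06 CPM on LD and 0.63 on CD, Sox9 1.72 and 1.47, and Cftr 0.245 and 0.344. The 6 macrophage genes summed to 469 to 1186 CPM on LD and 371 to 723 CPM on CD, with 1 of 6 called, Cd68, higher on LD. Of the 5 stellate cell genes 2 were called, both higher on LD, Col1a1 (log2 fold change 1.6, edgeR adjusted p 0.000841) and Dcn (0.38, 0.0159), and the list summed to 463 to 752 CPM in the LD livers against 514 to 608 CPM in the CD livers. Of the 5 endothelial genes 1 was called (Lyve1, 0.90) and of the 4 lymphocyte genes 1 (Ptprc, 0.69), both higher on LD. Of the 6 hepatocyte markers 2 were called, both lower on LD, Cps1 (-1.33) and Serpina1a (-0.49, edgeR adjusted p 0.00264). For lymphatic endothelium, where Prox1 is also expressed, the 3 markers summed to 46.6 to 66.2 CPM on LD and 46.9 to 60.7 CPM on CD, with none called and Ccl21a at 0. Flt4 made up nearly all of that sum, and Pdpn averaged 1.19 CPM in the LD livers and 1.91 CPM in the CD livers (log2 fold change -0.67, edgeR adjusted p 0.32). The part of these cells in the member results was not tested.

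For each called member the genes with the most similar levels over the 10 livers were named by Pearson's r of log2 CPM, given as a description over livers that share 2 diets. Nr5a2 was closest to Kat2b (r = 0.98), Atf6 (0.98) and Pcgf3 (0.97), and after the diet means were removed the same r values were 0.88, 0.90 and 0.83. Foxa3 was closest to Rnu12 (0.96), Cxxc1 (0.96) and Nup210 (0.95), with 0.90, 0.89 and 0.88 left within diets. Prox1 was closest to Nbas (0.96), Rint1 (0.95) and Uggt1 (0.95), with 0.94, 0.92 and 0.93 left. Among the members, Hnf4a and Nr5a2 were the most alike across all livers (r = 0.87), with 0.46 left within diets, whereas r between Foxa1 and Foxa2 was 0.67 across all livers and 0.79 within diets.

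Other genes of the same network were taken from 3 lists. Of the other hepatocyte regulators, 27 of 28 were tested and 8 were called, of which 2 were higher and 6 lower on LD, a share near the 24.9% of all genes. The median over the list was -0.18 on the log2 scale. Nr1i3 (CAR, the xenobiotic receptor) rose by 0.67 on the log2 scale (adjusted p 0.00984) and Ppara (the fatty acid receptor) by 0.34 (0.0160). Mlxipl (ChREBP, the carbohydrate response factor) fell by 1.06 (8.57e-06), Hhex (a homeobox gene of early liver) by 0.73 (0.0172) and Xbp1 (a factor of the unfolded protein response) by 0.52 (0.00807), all by edgeR. Cebpa, whose protein was mapped by ChIP, averaged 321 ± 26.8 CPM in the LD livers and 384 ± 23.5 CPM in the CD livers (SD, n = 5 each), and like Hnf4a it fell just short of the fold limit, at -0.26 (SE 0.08, edgeR adjusted p 0.0202).

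Of the 30 HNF4A targets and hepatocyte function genes, 11 were called, of which 2 were higher and 9 lower on LD, beside 24.9% of all genes called (13.8% higher and 11.1% lower on LD). In 7 of the 10 analyses that left out 1 library, 1 target was called as higher in place of 2. With the replicate number as a block in the fit, 0 targets were called as higher and 9 as lower. The median over the list was again -0.18. Apoa4 (an apolipoprotein) rose by 1.70 (SE 0.38, edgeR adjusted p 0.00978) and Cyp8b1 (sterol 12-hydroxylase) by 0.40 (SE 0.13, 0.0378). The genes that fell most were Cps1 (the entry enzyme of the urea cycle, -1.33), G6pc (glucose release, -1.2), Slc10a1 (bile acid uptake, -1.08) and Tat (tyrosine breakdown, -0.88), with edgeR adjusted p-values of 0.000545, 0.00244, 3.44e-05 and 0.0254. Albumin itself, Alb, did not pass the test (log2 fold change -0.07, edgeR adjusted p 0.614). Of the 16 cofactors 9 were called, 1 higher and 8 lower on LD, beside the same 24.9%, with a median of -0.30. By limma on log2 TPM the split among the cofactors was 2 higher and 3 lower. Ppargc1a (a coactivator of HNF4A in fasting) fell by 0.73, Ppargc1b by 0.62 and Crebbp (an acetyltransferase that deposits H3K27ac) by 0.53, with edgeR adjusted p-values of 0.000701, 0.0295 and 0.00146, and Smarca4 (a remodelling ATPase) rose by 0.63 (0.00189). When CD replicates 4 and 5 were left out, 2294 genes were called in all, against 3357 with every library. Of the lists, 4 regulators (2 higher and 2 lower on LD), 4 cofactors (1 and 3) and 8 targets (all lower) were then called.

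H3K27ac marks active promoters and enhancers, and the second comparison asked whether its extent at the members differed between diets. The measure was the share of each window covered by SICER peaks in each liver. Outside Hnf4g, whose window was covered by 0 to 1.67%, the members were heavily marked. The mean over 6 livers was 72.6% at Prox1, more than in 99.5% of all genes, 57.5% at Foxa2, 56.9% at Hnf4a, 55.2% at Nr5a2, 54.6% at Foxa3, 34.2% at Onecut2, 33.0% at Onecut1 and 29.3% at Foxa1. Every annotated coding start site of these 8 genes lay within 1 kb of a peak in 3 of 3 LD and 3 of 3 CD livers.

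None of the 9 windows was separated between the diets, whereas 26.2% of the 19138 genes with any peak were, 20.9% with more coverage on LD and 5.30% with more on CD. An exact two-sided permutation test of 3 against 3 cannot go below 0.1, and the members gave 0.2 to 0.6. Nr5a2 was covered by 55.7, 51.5 and 50.6% on LD and 55.5, 59.4 and 58.5% on CD (exact permutation p 0.2). Onecut1 had 38.5, 22.2 and 24.3% on LD and 37.0, 34.6 and 41.4% on CD (exact permutation p 0.3), with LD replicate 1 among the CD livers. Hnf4a had 59.3, 54.7 and 49.8% on LD and 57.6, 58.7 and 61.3% on CD, again with LD replicate 1 in the CD range (exact permutation p 0.3). Without LD replicate 1, Hnf4a, Onecut1 and Nr5a2 became separated, all lower on LD, with 37.9% of all genes separated at that size. Without CD replicate 1 the separated members were Foxa1, Foxa2 and Nr5a2, again lower on LD (34.7% of genes), and without CD replicate 3 they were Foxa3 and Onecut2, both higher (33.2%).

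The mean coverage was lower on LD at 6 of the 9 members, against 31.1% of all genes, with a median difference of -3.67 percentage points at the members and 0.765 over all genes. The LD peak lists covered more of the genome, 150 to 160 Mb against 140 to 145 Mb on CD. Of 46 H3K27ac loci at the members, 30 (65.2%) had a peak in all 6 livers, against 59.5% of all loci. Onecut1 held the sole locus with a peak in all CD and no LD livers, chr9:74728400-74729999, 1600 bp within the gene, and there was none of the opposite kind (0.757% and 3.13% of all loci).

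**Figure D3:**
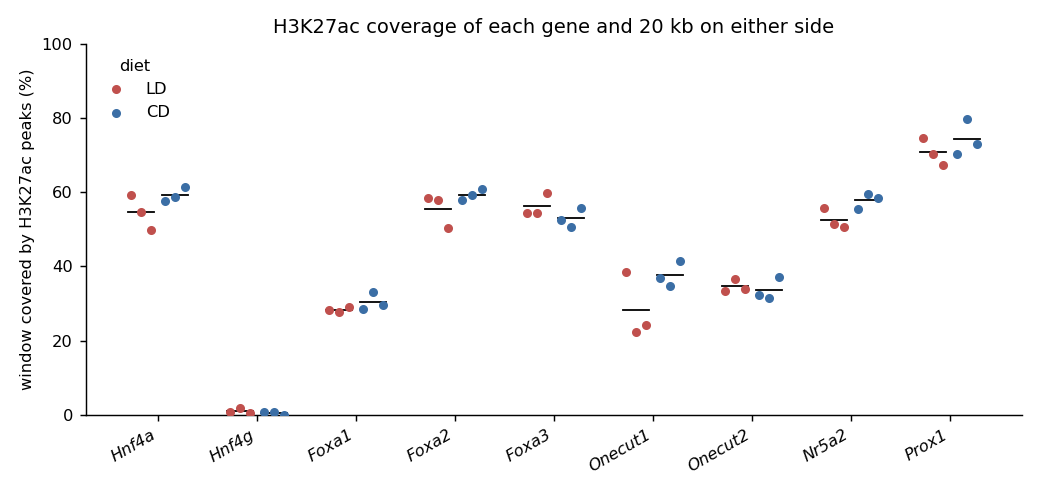
Percent of each member window covered by H3K27ac peaks, 1 point a liver (3 per diet), bars at the diet means. Prox1 is the most and Hnf4g the least covered, and the points of the diets overlap at every member.

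The third comparison concerned binding of Hnf4α, given as the height of HOMER peaks (tags scaled by the authors to a common depth) summed over each window. All 9 members had at least 1 Hnf4α locus with a peak in 2 or more of the 4 livers, 68 loci in all: 18 at Nr5a2, 12 at Hnf4a, 11 at Onecut2, 9 at Prox1, 6 at Foxa2, 5 at Foxa3, 4 at Onecut1, 2 at Foxa1 and 1 at Hnf4g. Of these, 66 overlapped H3K27ac (97.1%, against 78.8% of all Hnf4α loci) and 30 overlapped C/EBPα (44.1% against 39.3%). The summed height was greatest at Prox1 and Nr5a2, more than at 99.5% and 99.4% of genes, followed by Onecut2 (98.5%) and Hnf4a (97.5%), and Foxa2, Foxa3, Onecut1 and Foxa1 lay between 74.0% and 88.5%.

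The highest single locus was the one at Prox1 printed above, 64.4 kb from the start site and past the other end of the gene, with heights of 288.5 and 197 on LD and 179 and 332 on CD. Its mean of 249 exceeded 99.8% of all Hnf4α loci. A second locus, chr1:191930673-191930927, lay beside it, with 243 and 197 on LD and 231 in CD replicate 2, and no separate peak in CD replicate 1. Nr5a2 was topped by an intronic locus, chr1:138826394-138826620, at 120 and 92.0 on LD and 65.2 and 122 on CD. Each locus varied more between the 2 CD livers than between the diets.

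The gene Hnf4a has an upstream promoter (P2) and, 40.4 kb downstream, the promoter used in adult liver (P1), and neither Hnf4α nor C/EBPα had a peak within 1 kb of the P1 start in any of the 4 livers. Its highest Hnf4α locus, whose sequence is printed above, was 6.39 kb upstream of P1, with 79.8 and 91.5 on LD and 64.5 and 137.5 on CD, and the next was 5.43 kb upstream, with 78.2 and 71.5 on LD and 38.0 and 85.8 on CD. At P2 only low peaks were listed, of 8.0 and 13 on LD and 7.0 in CD replicate 1.

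The highest Foxa2 locus lay in an intron of the neighbouring 9030622O22Rik, 20.3 kb from the start, at 55.5 and 56.0 on LD and 37.8 and 92.8 on CD. Of the other members, Foxa2 and Nr5a2 were bound within 1 kb of a start site in every liver. The Foxa2 peak, 155 bp upstream, had heights of 50.5 and 44.2 on LD and 40.5 and 67.5 on CD. The Nr5a2 peak, 359 bp upstream, had 66.0 and 57.5 on LD and 40.5 and 97.5 on CD. A further peak in LD replicate 2 brought its summed height within 1 kb of that start to 82.5. In LD replicate 1 alone, a peak lay within 1 kb of the Foxa3 start (16.8) and of the most downstream Hnf4a start (19.0). Foxa3 was bound in its intron, 7.32 kb from the start, at 115 and 71.5 on LD and 49.5 and 88.5 on CD. Onecut1 had its highest locus in an intron, 4.86 kb from the start, at 36.2 and 40.2 on LD and 21.8 and 68.5 on CD, and Onecut2 in an intron as well, 10.4 kb from the start, at 109 and 105.5 on LD and 71.0 and 150.5 on CD. Foxa1 was bound 6.72 kb from its start, at 59.0 and 40.0 on LD and 34.2 and 88.5 on CD. The lone Hnf4g locus reached a mean height of 5.50, above 15.6% of all loci.

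The summed Hnf4α height was separated between the diets at none of the 9 members, against 19.4% of the 18853 genes with a peak (14.5% higher and 4.95% lower on LD). Hnf4a had 409 and 374 on LD and 248 and 590 on CD, Prox1 739.5 and 569 on LD and 461 and 832 on CD, and Nr5a2 614 and 564 on LD and 395 and 911 on CD. In each the LD livers lay between the CD livers. The same spread held over the genome: at loci found in all 4 livers the median height in LD replicates 1 and 2 was 35.8 and 33.5, against 21.5 and 42.8 in CD replicates 1 and 2. The result therefore turned on which CD liver was used. Without CD replicate 2 all 9 members were higher on LD (80.2% of genes separated), without CD replicate 1 7 were lower (76.2%), and with heights scaled to equal medians, an alternative added after the data were seen, 7 were separated, 6 lower and Foxa3 higher on LD (42.8%). With 2 livers a diet no exact p below 0.33 can be reached.

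Of the 68 loci, 39 (57.4%) had a peak in all 4 livers, against 50.9% of all Hnf4α loci. By presence alone, 8 of the 68 Hnf4α loci (11.8%) had a peak in both CD and neither LD liver, and 1 (1.47%) the reverse, against 3.96% and 7.49% of all Hnf4α loci. The CD-only loci lay at Nr5a2 (3), Hnf4a (2), Onecut2 (2) and Prox1 (1), and the LD-only locus at Nr5a2. None was the highest of its gene. Peaks that lay side by side without overlap count as separate loci. The LD-only Nr5a2 locus (chr1:138863696-138863914) lay beside a CD-only one (chr1:138863364-138863593), so that both diets had a peak in that region.

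C/EBPα, a leucine zipper factor that works beside HNF4A in hepatocytes, had 57 loci at 8 of the 9 members and none at Hnf4g, of which 54 overlapped H3K27ac (94.7% against 75.4% of all C/EBPα loci). Nr5a2 had 15, Hnf4a 12, Prox1 11, Onecut2 7, Foxa2 5, Onecut1 4, Foxa3 2 and Foxa1 1. The summed height at Hnf4a exceeded that of 99.7% of genes. Its highest locus, chr2:163406058-163406372, lay 33.3 kb downstream of the P1 start, in intergenic sequence, with heights of 70 and 79.0 on LD and 164.5 and 91.0 on CD. The next lay under the highest Hnf4α locus, 6.34 kb upstream of P1, with 48.0 and 61.5 on LD and 127.5 and 88.0 on CD. In both the LD livers were lower than the CD livers.

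The highest C/EBPα locus of Nr5a2, 6.77 kb upstream of the start, had heights of 32.0 and 40.5 on LD and 82.0 and 60 on CD, and that of Onecut1 had 28.5 and 38.5 on LD and 68.5 and 67.5 on CD. These too did not overlap between diets. Of the 25 C/EBPα loci at the members with a peak in all 4 livers, 15 were lower on LD without overlap and 1 was higher, where 46.4% of all such loci were lower. At Foxa3 the intronic locus shared with Hnf4α had 39.0 and 39.0 on LD and 51.0 and 29.0 on CD, and at Prox1 the highest had 42.5 and 42.0 on LD and 54.0 and 42.5 on CD. Onecut2 had its highest at 67.5 and 56.5 on LD and 98.5 and 56.0 on CD. Near start sites C/EBPα was listed at Foxa2 in 3 livers (11.5 and 16.5 on LD, 38.5 in CD replicate 1) and at Nr5a2 in all 4 (20.5 and 20 on LD, 32.5 and 17.5 on CD). A second Nr5a2 locus, 798 bp into the gene, was listed on LD alone (11 and 23.0), so that the C/EBPα heights within 1 kb of this start summed to 31.5 and 43.0 on LD and 32.5 and 17.5 on CD. At the Foxa3 start a peak of 9.5 was listed in CD replicate 2 alone. Foxa1 had a single low locus, at 14.5 and 10.5 on CD and without a peak on LD. Over the 57 loci, 25 (43.9%) had a peak in all 4 livers, 12 (21.1%) on LD alone and 4 (7.02%) on CD alone. The shares over all C/EBPα loci were 41.8%, 15.3% and 5.22%. Here too loci adjoined, as at Nr5a2, where chr1:138822405-138822761 (CD alone) lay beside chr1:138822771-138823032 (LD alone).

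Summed over windows, C/EBPα height was separated at 5 members: lower on LD at Hnf4a, Foxa3, Onecut1 and Onecut2, and higher at Prox1. This share is near the background, since 43.1% of the 21190 genes with a peak were separated, 33.9% lower and 9.19% higher on LD. Hnf4a had 311.5 and 379.5 on LD and 497.5 and 385 on CD, Onecut1 74.5 and 103 on LD and 189.5 and 129.5 on CD, and Prox1 254 and 254 on LD and 246 and 188.5 on CD. Onecut2 had 151 and 151.5 on LD and 242 and 155 on CD, and Foxa3 had 45.0 and 49.5 on LD and 92.0 and 51.5 on CD. The margin between the diets was small at all of these but Onecut1. CD replicate 1 stood apart over the genome, with a median height of 37.5 at loci found in all 4 livers against 24.0 to 25.5 in the others. With heights scaled to equal medians, an alternative added after the data were seen, 4 members were separated, Foxa3 and Onecut1 lower and Foxa2 and Prox1 higher on LD (44.5% of genes), and Hnf4a and Onecut2 were no longer separated. In windows of 20 kb on either side of the start site, without the rest of longer genes, 3 members were separated (38.4% of genes) and Hnf4a, there the window of P2, was higher on LD. By number of peaks 5 were separated (22.9% of genes), 4 of them higher on LD, Hnf4a among these, so that the direction at Hnf4a was not the same for height and number.

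**Figure D4:**
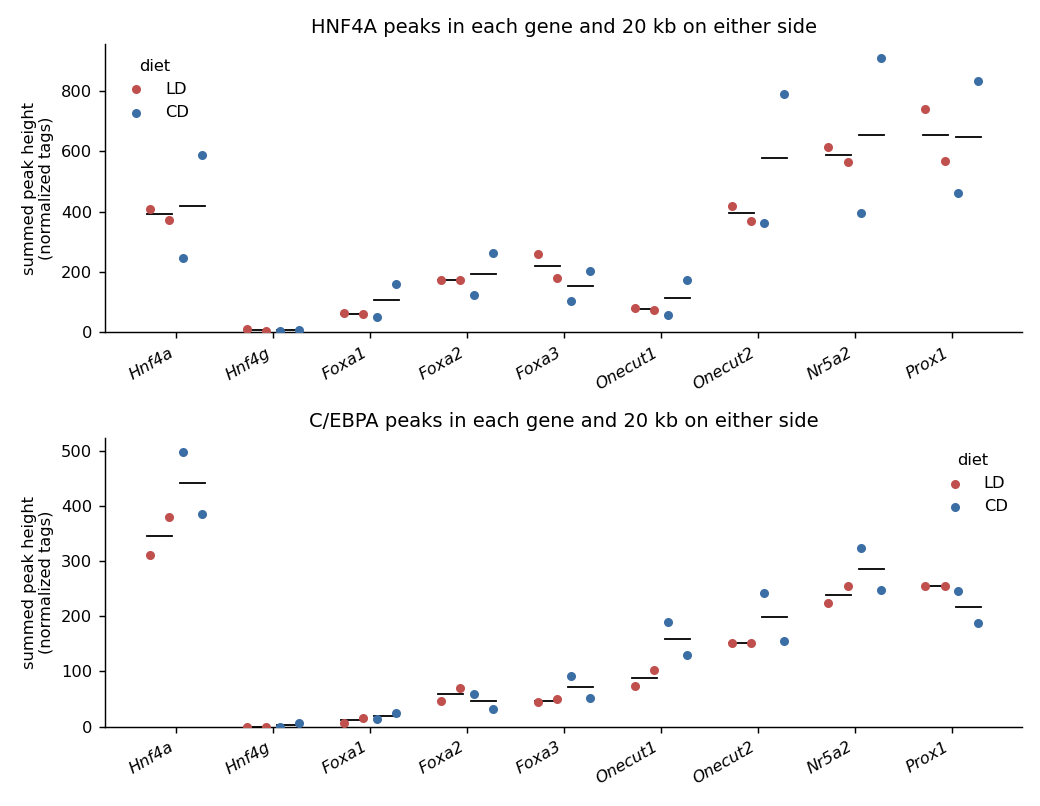
Summed peak height of Hnf4α (upper) and C/EBPα (lower) in each member window, 1 point a liver (2 per diet), bars at the diet means. For Hnf4α CD replicates 1 and 2 lie far apart, below and above the LD livers at most members, and for C/EBPα Prox1 is the sole separated member with higher LD livers.

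PCHi-C captures the contacts of promoter fragments (baits), and the CHiCAGO score ranks each contact against what distance predicts. With 1 pooled list a diet there was no replicate error and no test. Baits named for 8 members carried 247 interactions of score 5 or more within 1 Mb, 143 on LD and 213 on CD, and 109 (44.1%) were on both lists, against 54.1% of the 219672 interactions of all baits. Counted in the same way, all baits together had 170376 interactions on LD and 168219 on CD. Hnf4g appeared on neither list.

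The difference came mostly from Nr5a2, with 18 interactions on LD and 67 on CD, 17 of them shared. Of 3382 baits with at least 20 interactions, 2.25% had at least 2 times as many on CD and 2.87% on LD, and 0.503% had at least 3 times as many on CD, a limit chosen after this value was seen. The gap remained at stricter scores, with 7 against 30 interactions at a score of 7 and 1 against 10 at a score of 10. The median score of the 17 shared contacts was 6.55 in the LD list against 11 in the CD list, and that of the 50 on the CD list alone was 6.17, near the limit of 5. Among these 50, 27 far ends held an H3K27ac locus and 10 an Hnf4α locus, where 38.7% and 17.1% of the far ends of all baits did, so that the Hnf4α share was near the background. The CD-only contacts included a fragment within the gene, chr1:138807419-138808256 (score 8.14). The strongest contact on the CD list was chr1:138437753-138439011, 418 kb away (9.50 on LD and 16.9 on CD), and the strongest on the LD list was chr1:139118257-139118591, 262 kb away (10.3 on LD and 13.9 on CD). The bait was 578 bp long, short beside the median of 5806 bp. Without Nr5a2 the shared portion was 51.4%.

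The other members differed less in the number of contacts between the diets. The share on both lists was nonetheless 28.9% at Foxa3 and 28.6% at Onecut2, beside 25.0% at Nr5a2. Onecut1 had the most contacts on LD, 56 against 55 on CD, with 42 shared, and the highest scores of all members. At a score of 7 it had 41 on LD and 36 on CD, and at a score of 10 it had 27 and 16, and 25 of the 42 shared contacts scored higher on LD. Its fragment at chr9:74376600-74382055, 332 kb upstream of the bait and holding H3K27ac, Hnf4α and C/EBPα loci, scored 34.7 and 34.3, and that at chr9:74173558-74174097 scored 19.6 on LD and 36.0 on CD. Foxa3 had 21 and 28 contacts with 11 shared, and 28 of its 38 far ends were baits of other genes, among them Pglyrp1 (12.5 on LD and 9.87 on CD) and Relb (7.99 and 9.64). Foxa1 had 18 and 30 with 16 shared, Foxa2 13 and 18 with 13 shared, and Onecut2 11 and 7 with 4 shared.

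Hnf4a had 2 contacts on LD and 4 on CD, but its bait fragment, chr2:163328582-163336373, holds P2, and the fragment with the P1 start is not an end of any listed interaction, so that contacts of P1 were not analysed here. Prox1 had the same 4 contacts on both diets, adjoining fragments over chr1:191863384-191875273, 122 to 130 kb from the bait, all 4 with H3K27ac and 2 with Hnf4α. Their scores were higher on CD in each case, the strongest at 9.15 on LD and 13.5 on CD. Over all members 47.0% of far ends held an H3K27ac locus, 25.9% an Hnf4α and 23.5% a C/EBPα locus, against 38.7%, 17.1% and 13.9% for all baits. In the pooled Hi-C calls, Hnf4a and Onecut1 lay in topologically associating domains with the same borders on both diets (370 and 220 kb), 6 members in domains that differed, and Hnf4g in none, where 40.8% of LD domains had an identical CD domain.

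**Figure D5:**
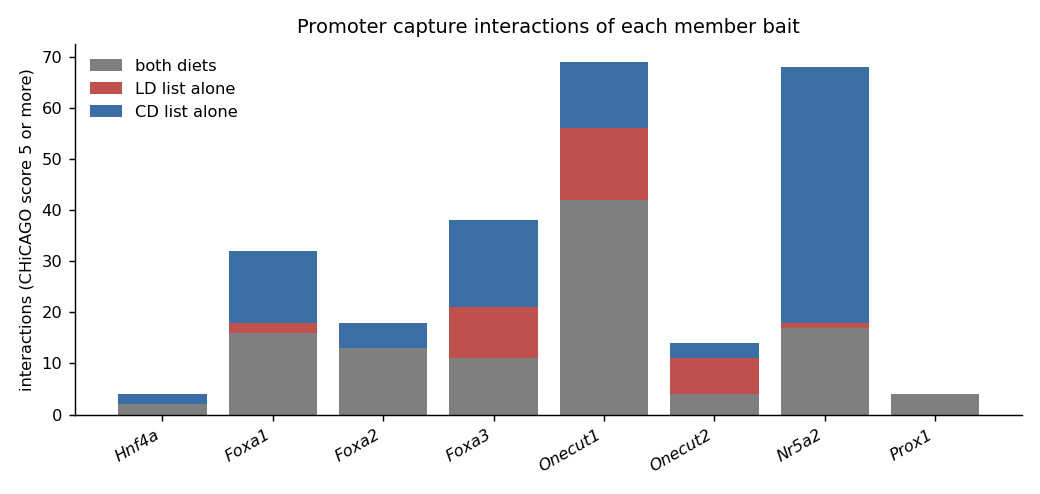
Number of PCHi-C interactions of each member bait, split into those on both lists, on LD alone and on CD alone. Nr5a2 has 50 on CD alone and 1 on LD alone, and the 4 of Prox1 are all shared.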

How the data were processed

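Livers were grouped by diet from their labels. Per the labels and the study's methods, the authors aligned to mm9 with STAR 2.5 and deposited featureCounts 1.5.0-p1 counts by strand on RefSeq genes, TPM values (transcripts scaled for length and library size). A TPM column from CD carries no matching replicate number and was used only as a CD liver. SICER intervals for H3K27ac were deposited per library. The authors deposited HOMER peaks per library, whose signal is the peak height in tags normalized by HOMER. The authors deposited CHiCAGO scores computed on pooled PCHi-C libraries, and Hi-C domains. The authors' columns of fold changes and p-values were not used.

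Counts were tested with edgeR 4.0.16 (TMM, filterByExpr, 13494 genes). Alternatives were DESeq2 1.42.0, its size factors, no filter, at least 10 counts in every library, limma 3.58.1 on log2 TPM (1 or 0.1 added), a replicate block, a test against a fold of 1.2 and omission of each library. On simulated counts the test was checked. Gene positions came from the mm9 coordinates in the deposited count table. Peak windows took the peaks centred in the gene and 20 kb on either side, and overlapping peaks were merged into loci kept when called in at least 2 livers. Motifs were searched in 200 bases of NCBIM37, the mm9 assembly, and start sites came from GENCODE vM1. Python 3.11.15 was used. The members and lists were chosen with earlier results of these data known. The genes named are all members, in each list the called genes with the largest change (up to 4 a direction, of which 2 are not reported here), and 3 similar genes per called member, besides Cebpa, Alb and single markers, chosen after their values were seen. The symbol Tf was read as Trf. The labels say nothing of the replicates beyond their numbers, so p-values measure only the spread between these samples. Depth was 31707963 to 39012699 counts per library, and no depth was used for peaks or interactions. Contacts are given as counts with no interval, apart from a 95% Wilson interval of 38.1 to 50.4% for the shared portion that covers counting error only.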

Additional observations from a re-analysis of the deposited data

Results flagged for a closer look

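Of 52 groups of 5 livers checked (26 named genes on each diet), 2 held a liver whose gap to the nearest other exceeded Dixon's 95% limit for 5 samples, where chance alone gives about 1 in 20. Hnf4a stood at 459 CPM in LD replicate 4, against 372 to 397 CPM in the other LD livers. Hnf4g stood at 0.204 CPM in CD replicate 5, against 0.0279 to 0.0637 CPM in the other CD livers, a matter of 7 counts. The high Onecut1 livers are a pair and so were not picked out by this rule.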

How the results depend on the processing

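The number of called members was 5 by DESeq2 (Onecut1 and Onecut2 added, with 3776 genes called in all against 3357), 1 by limma on log2 TPM with 1 or 0.1 added (Foxa3, 2967 and 3108 in all), 0 by edgeR's test against a fold change of 1.2 (4 at an unadjusted p under 0.05, 1378 in all), and 2 to 6 when 1 library was left out (2833 to 3479 in all). Prox1 was not called without LD replicates 2, 3 or 5 or CD replicates 2 or 3, and without CD replicate 1 Hnf4a, Foxa1 and Onecut2 joined the calls. The test against the fold change called 2 regulators, 6 targets and 5 cofactors, and limma 5 cofactors at either pseudocount. Without CD replicates 4 and 5, 4 regulators and 4 cofactors were called (2294 genes in all). Leaving out 1 library gave 7 to 9 regulators, 8 to 11 targets and 7 to 10 cofactors. Foxa2 ranged from -0.095 to 0.12 with 1 library left out and changed sign in 5 settings, to -0.03 without LD replicate 1, -0.09 without LD replicate 4, -0.03, -0.02 and -0.0074 without CD replicates 1, 2 and 3, never called. The cause of these shifts was not tested.

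H3K27ac windows were separated at 2 members at 50 kb (30.5% of genes), 2 around the start site (22.6%) and 0 to 3 with 1 library left out (33.2 to 37.9%). Hnf4α windows were separated at 2 members by number of peaks (15.3%), 7 with scaled heights (42.8%) and 0 to 9 with 1 library left out (36.1 to 80.2%). C/EBPα windows were separated at 8 members at 50 kb (47.8%), 3 around the start site (38.4%), 4 with scaled heights (44.5%) and 6 to 8 with 1 library left out (60 to 79.3%). The shared portion of interactions was 35.1% at a score of 10 and 51.4% without Nr5a2.

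In the RNA the deviations of same-numbered libraries correlated at -0.08, 0.19, 0.01, 0.01 and -0.04. Pairs with different numbers were not compared, and the peak libraries were not checked, so whether replicate numbers pair the livers was not tested. With the replicate number as a block, 2 members (Foxa3 and Nr5a2), 8 regulators, 9 targets and 9 cofactors were called (3173 genes in all). The 9 targets were all lower on LD. All same-numbered pairs lay on one side at 2 members for H3K27ac (39.9% of genes), 0 for Hnf4α (27.4%) and 6 for C/EBPα (50.4%). The exact permutation test of 3 against 3 cannot go below 0.1 and that of 2 against 2 not below 0.33, and no other test was run on the peaks.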
